A study of Caenorhabditis elegans with 2 samples.

Results

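The 10 genes described here, *skn-1*, *med-1*, *end-1*, *end-3*, *elt-7*, *elt-2*, *pha-4*, *elt-1*, *hlh-1* and *unc-120*, encode transcription factors that set endoderm, pharynx, muscle and epidermis fate in the embryo of the nematode *Caenorhabditis elegans*. They were chosen by name, as 10 of 19985 annotated protein-coding genes, and every binding peak of the zinc finger protein LSY-2 with its summit from 3000 bp upstream of a gene's outermost 5' end to its 3' end was assigned to that gene. The assay was ChIP-seq, in which DNA bound by the protein is pulled down and sequenced, on 1 group of 2 biological replicates, mixed-stage embryos of both sexes of strain OP367. These worms carry the *unc-119(tm4063)* mutation on chromosome III and the transgene wgIs367, through which LSY-2 is made as a fusion to eGFP. The tagged protein thus adds to any made from the animal's own gene. The antibody label of both samples reads lsy-2, which does not tell whether the tag or LSY-2 itself was the target. There was no comparison group, and the data come from whole embryos, so binding in 1 lineage and weak binding in many cells cannot be told apart. Expression was not measured, so the stage and tissue could not be checked against marker genes.

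In the early embryo, maternal SKN-1 acts in the EMS blastomere to switch on *med-1* and its near-copy *med-2*. The GATA-type MED proteins activate *end-1* and *end-3* in the E cell, the founder of the intestine, and the END proteins in turn activate *elt-7* and *elt-2*, whose products hold intestinal identity for life. PHA-4, a FoxA factor, is the organ identity factor of the pharynx. ELT-1, a GATA factor, specifies epidermis, and HLH-1, the MyoD homologue, acts with UNC-120, a serum response factor homologue, in body wall muscle. LSY-2 itself is known for its role in the taste neurons.

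Peak lists on build ce11 were used: 30000 peaks for each replicate, 30000 for the pooled replicates, and 2568 kept by the authors. The last were kept by irreproducible discovery rate (IDR), which rates agreement between replicates. The IDR peaks are the 2568 of highest signal in the pooled list, so a pooled rank up to 2568 is an IDR peak. Of these, 99.6% overlapped a peak of both replicate lists, against 40.5% of pooled peaks outside the IDR list. Only 72.6% ranked within 2568 in each replicate's own list. A place in the IDR list thus does not show that both replicates ranked that peak high. The lists of 30000 hold background as well as peaks, so a low rank there is not evidence of binding. Signal is the authors' own value per peak, with a scale set within each list, and rank 1 is the highest. Read depth is unknown from these files.

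LSY-2 peaks that passed the IDR threshold lay at *hlh-1*, *pha-4* and *end-3*, with 4 summits in all, and at none of the other 7 genes. This count of 3 of 10 genes stood beside 18.9% of all protein-coding genes with an IDR summit in a window drawn the same way. The strongest of the 4 peaks lay just upstream of the muscle gene *hlh-1*, at rank 294. The *end-3* summit lay far closer to the 5' end of *aip-1* than to that of *end-3*. With only summits in a gene's body or nearest to its own 5' end counted, *hlh-1* and *pha-4* were left, against 11.1% of all genes. Their windows fall in the longest of 4 classes by window length, where 18.5% of genes had an IDR summit by this rule. No test was made on a set of 10 genes chosen by name with earlier results of these data known.

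**Figure D1:**
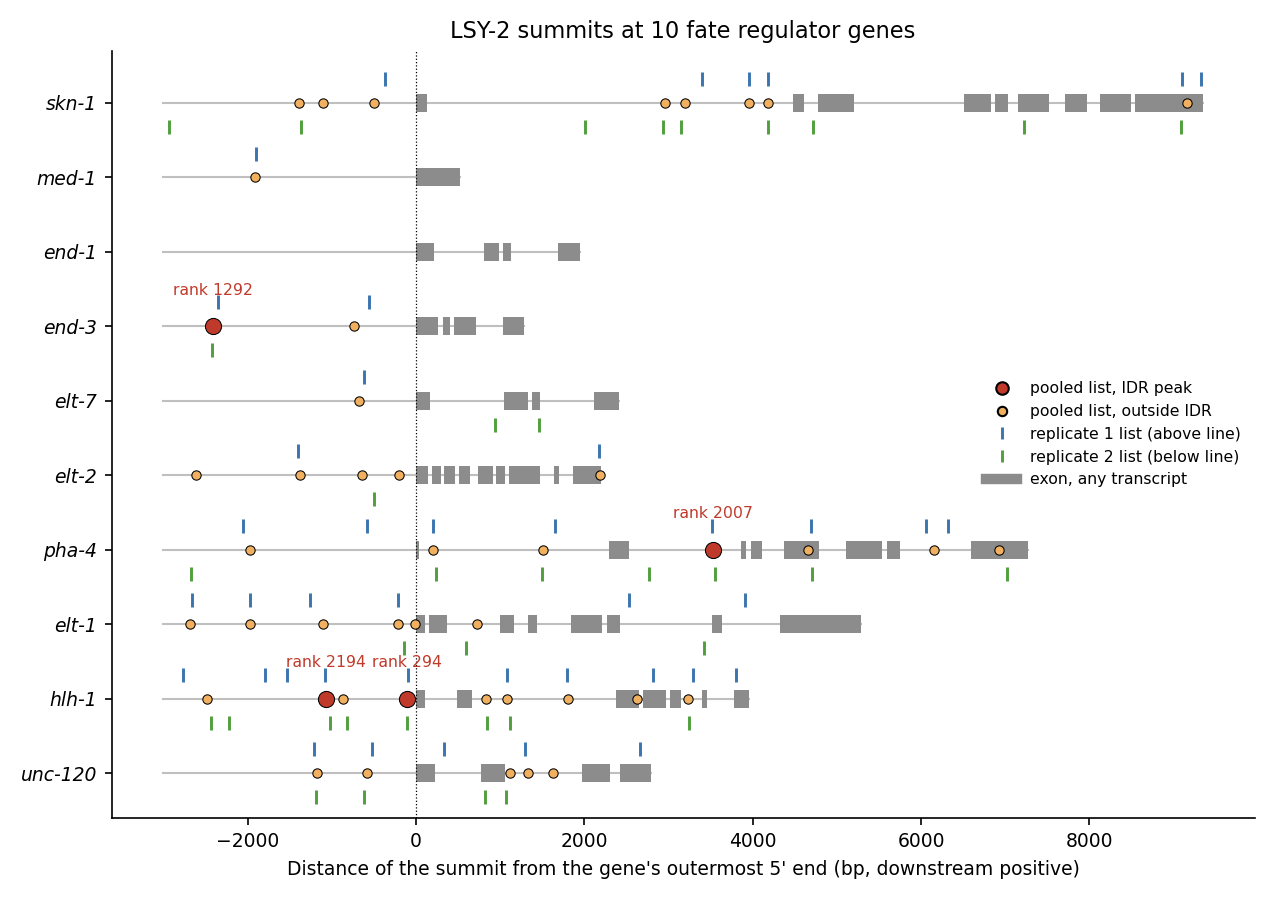
Summits at the 10 genes, plotted by distance in bp from the outermost 5' end (downstream positive), with exons of all transcripts as grey boxes. Circles are the 44 summits of the pooled list, red where they passed the IDR threshold (4, labelled with their rank), and ticks are summits of each replicate's own list. The window of *end-1* holds no summit of any list.

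The sequences under the 4 IDR summits are shown because they carry the peaks on which the counts rest. Added to them is 1 sequence under a *pha-4* IDR summit outside the window, which does not enter the counts by the 3000 bp rule. An IDR summit likewise outside the *unc-120* window is not shown. All are from WBcel235, the assembly of build ce11, on the strand of the gene, 5' to 3', and run to at most 299 bases around the summit, without bases of any annotated untranslated region. Capitals mark CANNTG, the E-box letters that bHLH proteins such as HLH-1 bind, and GGCGGAG in the *hlh-1* sequences. In the *pha-4* sequences they mark GATA and GGCGGAG, and in the *end-3* sequence CAGCTG and GTCAT, each on either strand. The first *hlh-1* sequence is chrII:4518323-4518573 and the second chrII:4517358-4517656. Those of *pha-4* are chrV:20756429-20756727, under the IDR summit in its intron, and chrV:20749156-20749454, under an IDR summit just outside its window. The *end-3* sequence is chrV:14012131-14012332.
hlh-1, summit at -102 bp: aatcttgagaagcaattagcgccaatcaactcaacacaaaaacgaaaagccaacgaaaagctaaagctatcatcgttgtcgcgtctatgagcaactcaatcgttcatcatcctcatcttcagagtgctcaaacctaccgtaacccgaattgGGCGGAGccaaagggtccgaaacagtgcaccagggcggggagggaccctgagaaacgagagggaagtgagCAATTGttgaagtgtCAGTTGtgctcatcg
hlh-1, summit at -1067 bp: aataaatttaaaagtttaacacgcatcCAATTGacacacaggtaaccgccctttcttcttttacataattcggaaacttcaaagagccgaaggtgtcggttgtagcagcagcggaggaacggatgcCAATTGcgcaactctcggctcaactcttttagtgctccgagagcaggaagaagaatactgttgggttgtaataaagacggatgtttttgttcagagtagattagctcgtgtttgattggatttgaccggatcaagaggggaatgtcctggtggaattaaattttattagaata
pha-4, summit at 3526 bp: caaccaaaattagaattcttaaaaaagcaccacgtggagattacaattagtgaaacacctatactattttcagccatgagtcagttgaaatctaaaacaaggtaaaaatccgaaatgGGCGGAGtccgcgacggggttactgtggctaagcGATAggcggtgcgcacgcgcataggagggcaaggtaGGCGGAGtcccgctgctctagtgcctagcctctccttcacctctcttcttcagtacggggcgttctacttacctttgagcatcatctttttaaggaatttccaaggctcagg
pha-4, summit at -3747 bp: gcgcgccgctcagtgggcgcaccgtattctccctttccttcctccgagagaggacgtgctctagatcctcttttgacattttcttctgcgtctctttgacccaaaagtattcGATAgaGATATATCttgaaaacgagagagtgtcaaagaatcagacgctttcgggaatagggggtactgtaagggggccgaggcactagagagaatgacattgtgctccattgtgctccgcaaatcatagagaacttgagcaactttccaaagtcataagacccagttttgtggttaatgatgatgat
end-3, summit at -2415 bp: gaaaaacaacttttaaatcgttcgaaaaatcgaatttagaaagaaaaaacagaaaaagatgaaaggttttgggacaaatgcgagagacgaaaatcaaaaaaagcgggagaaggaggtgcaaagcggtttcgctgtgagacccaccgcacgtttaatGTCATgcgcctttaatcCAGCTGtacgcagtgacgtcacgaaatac

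The sequence at -102 bp of *hlh-1* holds 1 match to GGCGGAG and that in the *pha-4* intron holds 2. In each, 1 match extends to GGGCGGAG and lies within 50 bp of the summit. These letters were picked after the sequences were read. Within 150 bp to each side of the summit, GGCGGAG was present at 7.28% of all 2568 IDR summits and at 3.85% of the 27432 pooled summits outside the IDR list. For GGGCGGAG the shares were 3.74% and 2.03%, and within 50 bp 2.65% and 0.740%. Among the 40 pooled summits of the 10 genes outside the IDR list, GGCGGAG was at 2, at 2629 bp and 3231 bp of *hlh-1*. The latter, of rank 24331, also held GGGCGGAG within 50 bp. CANNTG was present at all 4 IDR summits of the 10 genes, against 64.7% of all IDR summits, and GATA at 3 of 4, against 77.6%. Within 50 bp of the summit these counts fell to 2 and 1 of 4, against 36.9% and 34.9%. The longer GATA letters TGATAA and AGATAA, the FoxA letters TGTTTAC and the CArG box of serum response factors were at none of the 4. Among all 2568 IDR summits they were at 463, 338, 110 and 28. Of the 40 pooled summits outside the IDR list, 36 held GATA and 27 CANNTG, against 81.4% and 60.6% of all such summits. Within 50 bp it was 18 and 13, against 44.4% and 27.1%. CAGCTG, the E-box form in the *end-3* sequence, was at 1 of 4 summits against 7.44%, and the SKN-1 core letters GTCAT and ATCAT were at 1 and 2 of 4, against 31.4% and 38.7%. Within 50 bp each was at 1 of 4, against 3.50%, 11.5% and 11.6% of all IDR summits, in the same order. A match says only that the letters are there.

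*hlh-1* (WBGene00001948, chromosome II, 4518574 to 4522528), which drives body wall muscle fate, had 9 pooled summits, 2 of them IDR peaks, and 2.27% of all protein-coding genes had as many IDR summits or more. The main peak ran from 4518369 to 4518587, its summit placed at -102 bp from the 5' end, and had a pooled signal of 179. It had rank 289 in replicate 1, with a signal of 91.7, and rank 309 in replicate 2, with a signal of 85.8. Both replicates therefore placed it near the pooled rank of 294, and only 3.10% of all protein-coding genes had a best peak ranked as high. The other IDR peak, from 4517317 to 4517696 and centred near -1067 bp, had a pooled signal of 38.2 and rank 2194. It differed between the replicates, with rank 12369 and a signal of 7.43 in replicate 1 against rank 1235 and a signal of 30.1 in replicate 2. Its place in the IDR list thus goes with a high rank in 1 replicate only. The remaining 7 pooled summits had ranks from 7777 to 24331. Of these, 5 lay in the gene, 4 in introns and 1 in a coding exon. The other 2 lay upstream, 1 of them, at -2482 bp, inside *cyp-23A1*.

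The muscle partner *unc-120* (WBGene00006844, chromosome I, 8460225 to 8463015) had no IDR summit in its window and 5 pooled summits, ranked from 6016 to 29544. The best, at -1181 bp with a signal of 17.5, lay inside the noncoding RNA gene D1081.16 and had rank 14102 in replicate 1 and 11907 in replicate 2. The next, at -582 bp, had rank 7938, and 3 lay in introns. An IDR peak lay beyond the 3000 bp limit, at -3872 bp, with a signal of 67.0, pooled rank 1009, and ranks of 996 and 1051 in the replicates. No other protein-coding 5' end was nearer to it than that of *unc-120*, and it lay inside no annotated gene. By the 3000 bp rule it is not a peak of *unc-120*, although it ranked higher than 3 of the 4 that were assigned to the 10 genes.

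*pha-4* (WBGene00004013, chromosome V, 20753052 to 20760317), the pharynx gene, had 1 IDR summit among 7 pooled ones. It lay in an intron at 3526 bp from the outermost 5' end, in a peak from 20756388 to 20756767 with a pooled signal of 41.1 and rank 2007. The gene has 3 annotated transcripts with 3 different 5' ends, and the summit was at -332 bp from the nearest of these. The noncoding RNA gene F38A6.9 also covers it. The peak had rank 1944 in replicate 1 and 2593 in replicate 2, the latter just past the 2568 peaks compared. A stronger IDR peak, from 20749115 to 20749494, again lay outside the 3000 bp limit, at -3747 bp, with a signal of 82.7, pooled rank 708, and ranks of 887 and 636. As at *unc-120*, this summit was inside no annotated gene and nearest to the member's own 5' end. The other 6 summits in the *pha-4* window had ranks from 5581, at 1509 bp in an intron, to 25620, in the 3' UTR.

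For *end-1* and *end-3*, the paired GATA genes of the E cell, the windows differed. The *end-1* window (WBGene00001310, chromosome V, 13985128 to 13987074) held no summit in the pooled list or in either replicate list, as did 22.9% of all protein-coding genes. The *end-3* window (WBGene00001311, chromosome V, 14014695 to 14015980) held the IDR peak from 14012090 to 14012469, with a signal of 56.5, pooled rank 1292, and ranks of 1270 and 1537 in the replicates. Its summit was at -2415 bp from *end-3* but at -53 bp from *aip-1*, so it sits in the gap between *aip-1* and *ddx-17*, which both overlap the upstream stretch. Nearer to *end-3*, the pooled list had a single summit at -735 bp with a signal of 12.0 and rank 11780, which overlapped a peak of replicate 1 at rank 16506 and none of replicate 2. The genomic sequences of *end-1* and *end-3* are 48.1% identical over an end-to-end alignment, and the 500 bp upstream 52.7%. No unrelated sequences were aligned in this way, so these values do not show how alike the genes are.

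*med-1* (WBGene00003180, chromosome X, 12430609 to 12431133) had 1 pooled summit, at -1917 bp, with a signal of 9.46 and rank 17890. It overlapped a replicate 1 peak of rank 25292 and no replicate 2 peak. The gene and *med-2* are 97.5% identical over 525 bp, and 82.1% over the 500 bp upstream. How reads that match both copies were placed is not given in the sources used here, so values at either copy are uncertain. *med-2* had no pooled summit and none in the replicate 1 list, but its best summit in the replicate 2 list had rank 18559.

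The maternal regulator *skn-1* (WBGene00004804, chromosome IV, 5651039 to 5660384, minus strand) had 8 pooled summits, none in the IDR list. The best lay in an intron at 4180 bp, in a peak from 5656014 to 5656393, with a signal of 28.0 and rank 3155. The gene has 4 different annotated 5' ends, and the summit was at -599 bp from the nearest of these. By outermost 5' ends, that of *clec-178* was nearest. This peak was the highest-ranked member peak outside the IDR list, whose lowest signal was 33.4, and it lay in soft-masked sequence. Replicate 1 placed it at rank 2258, within its top 2568, and replicate 2 at rank 8975. The next, at 9160 bp in the 3' UTR, had rank 3568 with 5487 and 4187 in the replicates. The outermost 5' end nearest to it was that of *csn-5*. Another summit, at 3196 bp in an intron, had rank 6152. The 5 others had ranks from 11268 to 27245, with those at -1104 bp and -1389 bp inside *bec-1*.

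*elt-1* (WBGene00001249, chromosome IV, 9614995 to 9620280), the epidermis gene, had 6 pooled summits and no IDR summit. Its best peak, from 9614590 to 9614969, had its summit at -215 bp, a signal of 20.3 and rank 4844. The replicates differed here too, with rank 12423 in replicate 1 and 3740 in replicate 2. A further 4 summits lay upstream, with ranks from 18334 to 23637, and 1 in an intron at 724 bp had rank 10606.

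Sequence around these best peaks of *skn-1* and *elt-1* is shown because they lie next below the IDR peaks in the upstream and epidermal branches. It covers 50 bp to each side of the summit, chrIV:5656154-5656254 on the minus strand and chrIV:9614730-9614830 on the plus strand. Capitals mark the letters GTCAT and ATCAT in the first, as well as AGATAA, and GATA in the second, each on either strand.
skn-1, summit at 4180 bp: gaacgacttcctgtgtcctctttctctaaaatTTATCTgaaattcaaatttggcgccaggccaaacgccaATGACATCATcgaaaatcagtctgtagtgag
elt-1, summit at -215 bp: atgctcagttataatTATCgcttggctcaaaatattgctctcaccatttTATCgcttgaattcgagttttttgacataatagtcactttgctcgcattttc
The GTCAT and ATCAT matches in *skn-1* lie side by side, so they read as 1 run, and the AGATAA match stands apart. In windows of this length GTCAT was present at 12.2% of all pooled summits outside the IDR list, ATCAT at 18.6%, AGATAA at 5.95% and GATA at 44.4%. Among IDR summits the shares were 11.5%, 11.6%, 2.80% and 34.9%.

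The intestinal GATA genes had the weakest ranks after *med-1* and *end-1*. *elt-7* (WBGene00015981, chromosome V, 4770670 to 4773086) had 1 pooled summit at -673 bp, with a signal of 13.2 and rank 9947, and the 5' end of C18G1.9 was nearer to it. That peak overlapped a replicate 1 peak of rank 20615 and none of replicate 2. *elt-2* (WBGene00001250, chromosome X, 10481240 to 10483441) had 5 pooled summits. The best, at 2180 bp in the 3' UTR, had a signal of 16.2 and rank 6812, with rank 6379 in replicate 1 and no overlapping peak in replicate 2. The 4 upstream summits ranked from 14735 to 28798. No pooled peak of *elt-2* or *elt-7* overlapped a peak of both replicates.

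**Figure D2:**
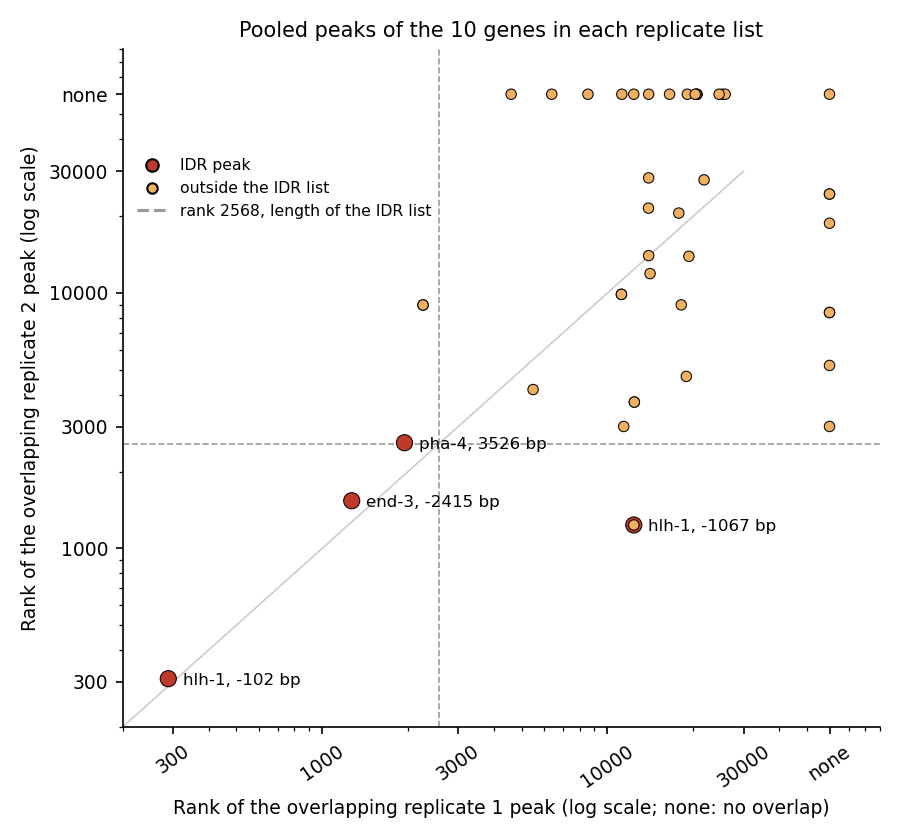
Rank in each replicate list of the peak that overlaps each of the 44 pooled peaks of the 10 genes, on log axes, with peaks that overlap none placed at "none". Some points coincide, because a replicate peak can overlap 2 pooled peaks. The *hlh-1* peak at -102 bp and the *end-3* peak lie inside rank 2568 in both replicates, and the *hlh-1* peak at -1067 bp does so in replicate 2 alone.

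Over the 10 genes, 9 had at least 1 pooled summit, against 58.3% of all protein-coding genes. With own 5' ends or gene bodies only it was 8, against 49.2%. The replicate 1 list had a summit at 9 genes, against 66.2%, and the replicate 2 list at 8, against 64.5%. With all genes split into 4 classes by window length, 45.9%, 47.0%, 60.6% and 79.9% had a pooled summit, from the shortest windows to the longest, and an IDR summit was found for 800 of 5000 genes in the shortest class and 26.2% in the longest. The windows of *skn-1*, *pha-4*, *elt-1* and *hlh-1* fall in the longest class. The 44 pooled summits came to 0.657 per kb of window, against 0.293 over all protein-coding genes, and 0.359 over the longest class. The 34 other regulators described below came to 0.503 per kb, from 0.286 in the mesoderm and muscle list to 0.665 in the E and MS lineage list. With overlapping peaks merged, the 44 summits became 36. The median rank of the 44 was 14274, against 15000.5 for the whole pooled list, so they were spread through the list. Of the 44 peaks, 22 overlapped a peak of both replicates, against 45.5% of all pooled peaks. Among the 40 outside the IDR list 18 did, against 40.5%. Where the overlap had to cover at least 50% of both peaks, 15 of the 44 did, against 31.0% of all pooled peaks, and 11 of the 40, against 25.9%. Of the 4 IDR peaks, 2 ranked within 2568 in each replicate's own list, against 72.6% of all IDR peaks. Taken alone, the top 2568 peaks of replicate 1 put a summit at 4 of the 10 genes, against 18.5% of all, and those of replicate 2 at 2, against 18.6%.

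By place, 23 of the 44 summits lay upstream, 16 in introns, 2 in coding exons and 3 in 3' UTRs. GC content within 50 bp of the summit ran from 48.5% to 62.4% at the 4 IDR summits, with a median of 55.0% against 46.5% for all IDR summits. At the other 40 the median was 34.7%, against 32.7% for all pooled summits outside the IDR list. None of the 4 IDR summit bases was soft-masked in the assembly copy used, against 565 of all 2568 IDR summits. Of the other 40, 15 were, against 46.7% of all pooled summits outside the IDR list.

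**Figure D3:**
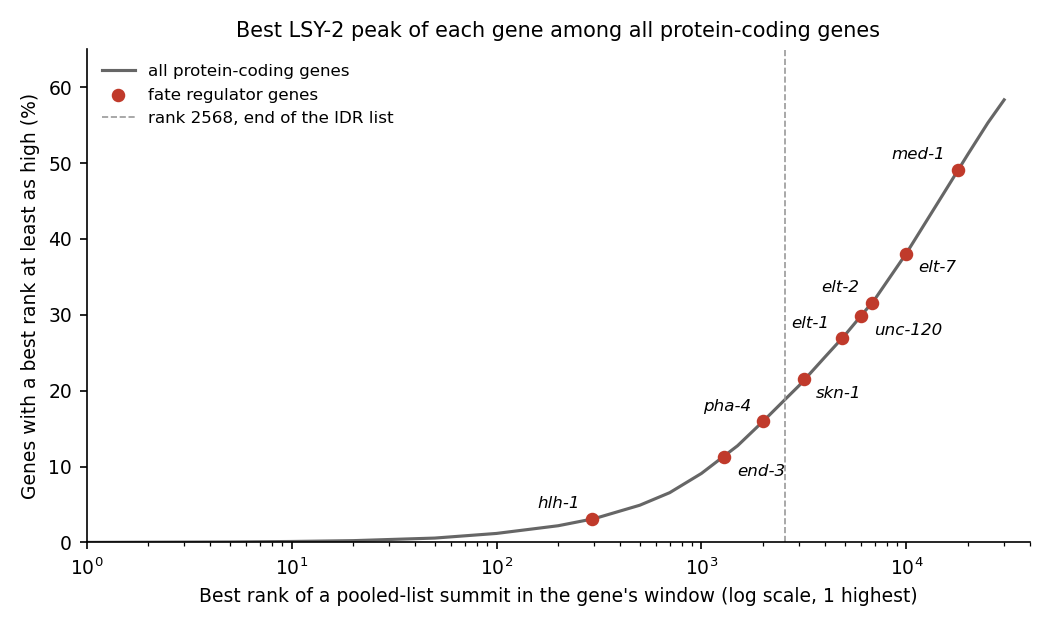
Percent of protein-coding genes whose best pooled summit ranks at least as high as the value on the log x axis (line), with the 9 genes that have a summit as points. *hlh-1* sits at 3.10%, *end-3* at 11.2% and *pha-4* at 15.997%, inside the end of the IDR list, and the others from 21.5% for *skn-1* to 49.1% for *med-1*.

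The other regulators of the same tissues were taken as 4 lists of 34 genes, drawn up from knowledge of the pathways with earlier results known, and 11 of them had an IDR summit, or 32.4%, against the 18.9% of all genes. Their windows were longer, with a median of 6759.5 bp against 5026 bp for all genes, and 26.2% of genes in the longest class of windows had an IDR summit. The list named for the E and MS lineages also holds genes of other lineages, such as *pal-1*, and 3 of its 8 genes had one. These were *pal-1*, a Caudal homologue of posterior muscle and epidermis, in an intron at rank 331, *sys-1*, a beta-catenin, at rank 958, and *pop-1*, the TCF factor that separates E from MS, with 2 summits and a best rank of 1593. *med-2*, *tbx-35*, *ceh-51*, *elt-4* and *pie-1* had none. Among pharynx regulators 2 of 8 had one, *eya-1*, an Eyes absent homologue, at -40 bp with rank 576, and *tbx-2*, a T-box gene, at -107 bp with rank 1168. In the mesoderm and muscle list it was 1 of 7, *vab-7*, an Even-skipped homologue, with 2 summits and a best rank of 1408 at -78 bp. *hnd-1* and *hlh-8*, the bHLH genes of mesoderm beside *hlh-1*, had no summit in any of the lists.

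Epidermis regulators had the highest count, 5 of 11, or 45.5%, against 18.9% of all genes and 26.2% in the longest class of windows. *elt-1*, which acts early in epidermal specification, had none. The 5 were led by *egl-18*, a GATA gene of seam cells, with rank 782 in an intron. Next were *nhr-25*, a nuclear receptor gene, with rank 996 in an intron, and *ceh-16*, an Engrailed homologue, with rank 2232 at -1683 bp. Replicate 1 placed the best *ceh-16* summit at rank 5206 and replicate 2 at 1787. The remaining genes had ranks of 2484 and 2564, near the end of the 2568. Only *egl-18* and *nhr-25* had a summit among the 1284 strongest, so the lead of this list rests on weaker IDR peaks. *lin-26*, a zinc finger gene needed in epidermis, had a best pooled rank of 3056, with 2364 in replicate 1 and 3708 in replicate 2.

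**Figure D4:**
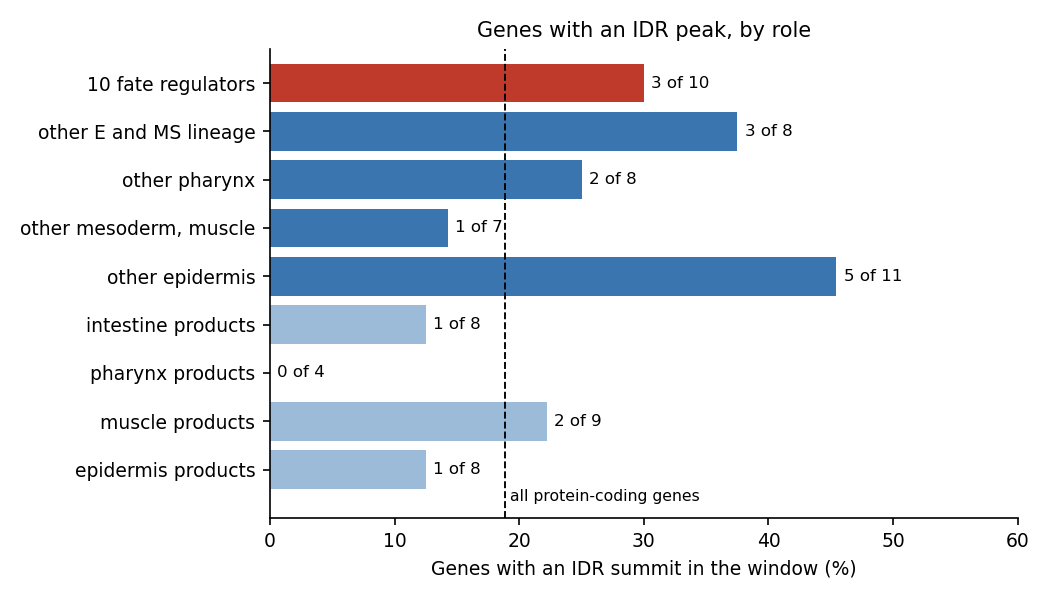
Percent of genes with an IDR summit from 3000 bp upstream to the 3' end, for the 10 genes, 4 lists of other regulators and 4 lists of tissue products, with counts beside the bars. The dashed line is the 18.9% of all protein-coding genes. Epidermis regulators had 5 of 11 and pharynx products 0 of 4.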

How the data were processed

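Peak lists from ChIP-seq of eGFP-tagged LSY-2 in 2 biological replicates were analysed. The authors deposited 1 peak list for each replicate, 1 for the pool and 1 after IDR, per the notes deposited with them. The caller, aligner, versions and IDR cut-off were not given in the sources used here, and read depth is unknown. The authors' signal value of each peak served to rank peaks within a list, ties sharing the lowest rank number. The deposited −log10 q-value was not used, and the deposited summit offset, in bp from the peak start, gave the summit. The lists on ce10 were not used.

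Genes came from Ensembl release 115 on WBcel235 and bases from the RefSeq copy of that assembly, and 0 peaks ran past a chromosome end. A pooled peak took the best rank of any replicate peak that overlapped it by at least 1 bp. All results are counts, ranks and shares with no test, since there was 1 group. The members and lists were chosen with earlier results of these data known. Named were all 10 genes, the gene with the nearest 5' end to each IDR summit, and up to 3 genes with an IDR summit from each list; genes named as having none, *lin-26*, and neighbours such as *bec-1* were added after the values were seen. Gene sequences were aligned end to end with Biopython 1.88. Counting in windows was checked on planted summits. Python 3.11.15, numpy 2.4.6, pandas 2.3.3 and matplotlib 3.10.9 were used. Alternatives were the 1284 strongest IDR peaks, each replicate's own top peaks, upstream limits of 1000 and 5000 bp, midpoints, any overlap of a peak with the window by 1 bp, reciprocal overlap of 50% between lists, merged peaks, own 5' ends only, and shorter sequence windows. Pooled counts from each replicate list alone, the letters GGCGGAG, and the counts of members' peaks under reciprocal overlap and in shorter windows were added after seeing the data.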

Additional observations from a re-analysis of the deposited data

How the results depend on the processing

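With the 1284 strongest IDR peaks, 1 gene (*hlh-1*) had an IDR summit, with 1 summit, against 11.2% of all genes and 17.6% of the other regulators. The window of 1000 bp upstream left 2 summits, in *hlh-1* and *pha-4*, and 13.8% of all genes, and that of 5000 bp gave 4 genes, *unc-120* added, and 22.98% of all genes. With any peak counted that touched the window by 1 bp, all genes came to 19.8%, and with own 5' ends only to 11.1%. Leaving out a replicate gave 2 to 4 genes and 3 to 4 summits: the top 2568 peaks of replicate 1 added *skn-1*, and those of replicate 2 lacked *pha-4*. In the pooled list, the 9 genes and 44 summits became 8 and 35 in the replicate 2 list and 9 and 41 in the replicate 1 list, and ranged over the other settings from 31 to 54 summits. The best ranks of *end-3* (11780) with 1000 bp or own 5' ends, and of *pha-4* (708) and *unc-120* (1009) with 5000 bp, moved by the construction of the window. Without a replicate, the best rank moved past 1.5 times for *elt-7* (20615 and 22999), *elt-2* (24404), *elt-1* (12423) and *unc-120* (13943). Within 50 bp of the summit, CANNTG was at 2 and GATA at 1 of the 4 IDR summits, and under reciprocal overlap of 50% 11 of the 40 peaks outside the IDR list matched both replicates in place of 18. No paired analysis was possible because there was 1 group. Unknown depth sets the limit on the weaker peaks: a gene without an IDR summit is not shown to be unbound.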

Other observations

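The products of the differentiated tissues had IDR summits at 4 of 29 genes, or 13.8%, against 18.9% of all protein-coding genes, with a median window of 7800 bp against 5026 bp. Intestine products had 1 of 8, *erm-1*, the ezrin homologue of the apical membrane, at -338 bp with rank 1934. *asp-1*, *mtl-2* and *pept-1* had no summit in any list. Muscle products had 2 of 9. The *unc-112* gene, a kindlin homologue of muscle attachments, had summits at -385 bp, with rank 1663, and at -1582 bp, where the 5' end of *set-5* was nearer, and the *pat-3* gene, a beta-integrin, had one at -2683 bp with rank 910 that lay at -135 bp from *ccdc-47*. The myosin gene *unc-54* had a best pooled rank of 4352, with 3817 in replicate 1 and 7238 in replicate 2. The myosin gene *myo-3* had no pooled summit but had summits in both replicate lists, at best ranks of 4404 and 3812. Pharynx products had 0 of 4, and *myo-1*, *myo-2*, *tnc-2* and *phat-1* had no summit in the pooled or either replicate list. Epidermis products had 1 of 8, *let-413*, a cell polarity gene, at -1181 bp with rank 1267.

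For the genes with no IDR summit in the window or within 5000 bp upstream, the nearest IDR summit to the 5' end lay 5231 bp away for *skn-1* (upstream, past *bec-1*), 22930 bp for *end-1*, 24159 bp for *elt-2*, 36600 bp for *med-1*, 39112 bp for *elt-7* and 52308 bp for *elt-1*. In each case the 5' end of another protein-coding gene was nearer to that summit. The *elt-2* case is the IDR peak of rank 386, whose nearest 5' end is that of *vab-3*.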
